A study of Homo sapiens with 6 samples.

Results

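The comparison was between LX2 cells carrying shMETTL3-2, the second of 2 hairpins against METTL3, and LX2 cells carrying shLuc, a control hairpin against firefly luciferase. It used 4 of the 6 libraries, 2 for each hairpin. Genes were kept where the mean deposited score over these 4 libraries was 50 or more, which left 12346 of 12654 genes. Of these, 169 had a score under 10 in at least 1 of the 4 libraries and 15 had a score at the maximum of the table. Their folds rest on values close to a floor or a ceiling, so they are described apart, and the other 12162 genes carry the main account. At the limit, DACH1, DKK2 and FLVCR1 were just inside with a mean score of 50, and ANXA2R, CCDC66 and LIN9 were just outside with 49.75.

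LX2 is an established line of human hepatic stellate cells. All groups were made in the same way from pLKO.1 lentivirus packaged in HEK293T (a kidney-derived human line), and the control cells were therefore also infected and drug selected. Infection lasted 10 h in the presence of 1 µg/ml polybrene and was followed by selection in 1 µg/ml puromycin, in high-glucose DMEM with 10% serum. The groups were shMETTL3-2, shMETTL3-1 (the other METTL3 hairpin, used here only beside shMETTL3-2) and shLuc, with 2 libraries each of total RNA. The infected cells were a selected population. No time of harvest, rescue construct or protein measurement was given in the sources used here.

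METTL3 is the catalytic subunit of the nuclear complex that writes N6-methyladenosine (m6A) on messenger RNA, where it acts with METTL14 and adaptors such as WTAP. Reader proteins that bind m6A alter the splicing, decay and translation of the marked transcripts, and the erasers FTO and ALKBH5 remove the mark. Hepatic stellate cells store retinoids in healthy liver and turn into contractile, collagen-producing myofibroblasts in fibrosis. The series title concerns METTL3 and the activation of these cells.

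Most genes differed between the groups by more than the libraries within a group did. Replicate libraries differed by a median of 0.10 per gene on the log2 scale in both groups, and libraries of different groups by 0.36 to 0.38. A gene was called where limma gave an adjusted p under 0.05 for the log2 of score plus 1. By that rule 7383 of the 12346 genes were called (59.8%), with 3828 higher (31.0%) and 3555 lower (28.8%) in shMETTL3-2 cells. Among the 12162 genes counted in what follows, 7320 were called (60.2%), of which 3794 were higher (31.2%) and 3526 lower (29.0%). A call together with a log2 change of at least 1 in size was made for 1508 of them (12.4%; 1566 or 12.7% of the 12346), 693 in the upward direction (5.70%) and 815 in the downward direction (6.70%). The 2 shMETTL3-2 values lay wholly above or wholly below the 2 shLuc values in 79.0% of these genes. Where genes are named below for a large called change, such separation follows from that choice and adds no support to it. The median change was 0.01, and 90% of the genes lay between -1.16 and 1.07. With so many genes called, a share of members of a gene list is read below against these percentages.

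**Figure D1:**
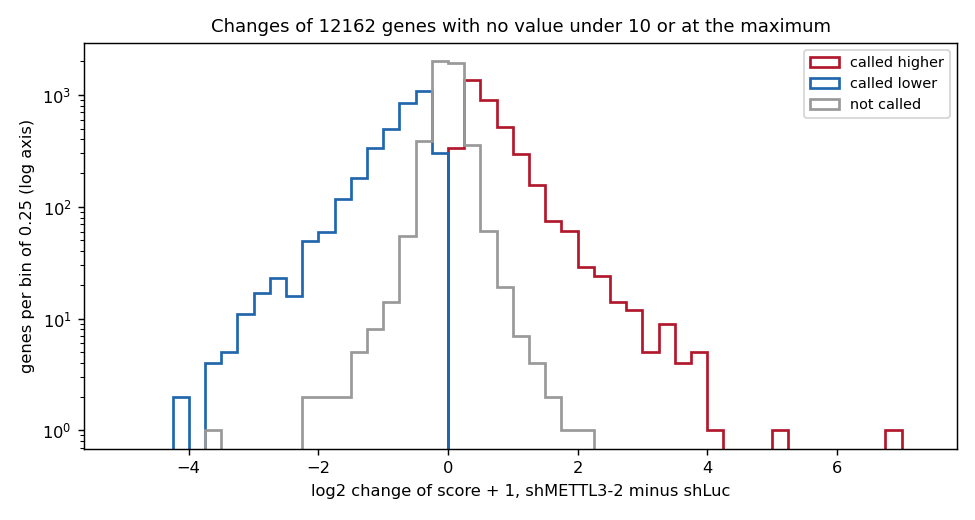
Number of genes (y axis, log scale) by log2 change of score + 1, shMETTL3-2 minus shLuc (x axis), for the 12162 genes with no value under 10 or at the maximum; the lines give genes called higher, called lower and not called. The distribution centres on 0, and the gene farthest from it is MMP1 at 6.88.

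Whether the 2 libraries per hairpin were grown separately is not stated, and the p-values therefore reflect library-to-library spread alone, possibly technical. Every library had the same median score of 552 and nearly the same total (16535130 to 16536605), so sequencing depth is unknown and a change common to all genes cannot be seen. Because these are bulk libraries, fewer cells expressing a gene and less RNA per cell cannot be told apart. Of 15 stellate or myofibroblast markers 12 were measured, all with a mean score of 50 or more; others, such as DES and LRAT, were not analysed here. The summed score of the 12 was 145962 to 150941 with shMETTL3-2, against 180851 to 187772 with shLuc. This sum is weighted to the highest scores and does not show that all 12 fell. COL1A1 (44454, against the maximum of 72566) and VIM (12124 and 12564, against 44404 and 31900) were lower. SPARC was higher (44404, against 11798 and 12564), and TIMP1 was similar (2480 and 2324, against 2276 and 2226). Of other cell types few markers were measured. Hepatocyte markers (2 of 8) summed to 218 to 237 with shMETTL3-2, against 236 to 342 with shLuc, and cholangiocyte markers (2 of 5) to 384 to 484, against 434 to 442. The 4 of 7 leukocyte markers summed to 1696 to 1730 with shMETTL3-2, against 1070 to 1133 with shLuc, with 1053 and 1083 against 392 and 360 for the macrophage and lysosomal protein CD68. The pan-leukocyte marker PTPRC was at 255 and 214 with shMETTL3-2, against 317 and 298 with shLuc. The 3 of 7 endothelial markers summed to 739 to 741 with shMETTL3-2, against 346 to 368 with shLuc. Here the receptor TEK was higher (688 and 684 with shMETTL3-2, against 100 and 110 with shLuc) and the endothelial cadherin CDH5 was lower (4 and 10, against 180 and 164). The part of these markers in the results below was not tested.

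METTL3 itself (ENSG00000165819, chromosome 14, minus strand, hg19 positions 21966277 and 21971972 at the ends of the listed transcript) was lower with both hairpins against it. It scored 148 and 132 with shMETTL3-2 and 274 and 256 with shMETTL3-1, against 536 and 552 with shLuc. Means were 140 ± 11.3 for shMETTL3-2 and 544 ± 11.3 for shLuc (SD, n = 2 each), and the log2 change was -1.95 (SE 0.10, adjusted p = 6.29e-06), which is 3.87-fold lower. shMETTL3-2 left less METTL3 than shMETTL3-1 did, by a further log2 of -0.92 (adjusted p = 0.000159). Of 12 other writers and partners counted, 3 were called higher and 2 lower, with a median change of 0.01. The adaptor RBM15B, which helps recruit the complex to RNA, scored 2167 and 2235 with shMETTL3-2, against 1125 and 1136 with shLuc (log2 0.96). The calls of ZCCHC4 and CBLL1 were small (log2 0.40 and 0.24). Both were lost without shMETTL3-2 replicate 2, the 1 alternative under which ZCCHC4 lost its call. CBLL1 lost its call under 8 alternatives, among them only the 4 libraries of the contrast in the fit and scaling by the median of ratios. The 2 that fell were ZC3H13, which holds the complex in the nucleus (log2 -0.47), and PCIF1, which methylates cap-adjacent adenosine (log2 -0.56). METTL14 scored 332 and 314, against 350 and 263, and its values overlapped between the groups (adjusted p = 0.61).

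Of 14 erasers and readers, 1 was called higher and 3 lower; without shMETTL3-2 replicate 2, 3 were called higher, and without replicate 1, 2. FTO scored 228 and 300 with shMETTL3-2, against 496 and 530 with shLuc, and fell by 0.97 on the log2 scale (SE 0.14, adjusted p = 0.000729). It was not called with shMETTL3-1 (log2 0.27), and shMETTL3-2 minus shMETTL3-1 came to -1.24 (adjusted p = 0.000188). ALKBH5 and the reader YTHDF3, which acts in the translation and decay of marked RNA, also fell (log2 -0.38 and -0.70). The m6A reader IGF2BP2, which stabilises bound transcripts, was the one that rose (log2 0.52).

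The largest rise was that of MMP1, the interstitial collagenase that cuts fibrillar collagen (ENSG00000196611, chromosome 11, hg19 positions 102660651 and 102668891, minus strand). It scored 8681 and 6822 with shMETTL3-2 and 392 and 286 with shMETTL3-1, against 68 and 61 with shLuc. The log2 change was 6.88 (SE 0.18, adjusted p = 1.51e-06), which is 118-fold, and the groups stood far apart. Subunits of AP-1, a factor known to drive this gene, went both ways among those given here. Their part in the rise of MMP1 was not tested. FOSL1 (log2 0.83), JUNB (0.95) and JUND (0.57) were called higher, JUN (-0.21) and ATF3 (-1.38) were called lower, and FOSB lay at -0.02 (adjusted p = 0.913).

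The other large rises covered cell surface, secreted and redox proteins. CLDN1, a tight junction claudin, scored 946 and 986 with shMETTL3-2, against 28 and 28 with shLuc (log2 5.06). CXCL5, a neutrophil-attracting chemokine, scored 711 and 630, against 36 and 34 (log2 4.22). SLC7A11, the cystine importer that feeds glutathione synthesis, scored 9725 and 8417, against 668 and 667 (log2 3.76, SE 0.08, adjusted p = 5.60e-07). In each of these genes the shMETTL3-2 libraries stood clear of the shLuc libraries. SLC7A11 was not called with shMETTL3-1 (812 and 725; log2 0.20), and the hairpins differed by 3.56 (adjusted p = 4.52e-07). PRNP, the cellular prion protein, scored 31962 in both shMETTL3-2 libraries, against 2448 and 2272 in the shLuc libraries (log2 3.76). The chromatin architectural protein HMGA2 rose by a log2 of 3.87, the urokinase inhibitor SERPINB2 by 3.87, the actin bundler LCP1 by 3.83 and SUMF1, which activates sulfatases, by 3.75. TFPI2, a secreted protease inhibitor (3.61), TNFRSF11B, the decoy receptor osteoprotegerin (3.59), and OAS2, an antiviral sensor of double-stranded RNA (3.52), complete the 12.

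Among the largest falls were cytoskeletal and signalling genes. AIF1L, an actin-binding protein, scored 56 and 55 with shMETTL3-2, against 893 and 1011 with shLuc (log2 -4.07, SE 0.11, adjusted p = 8.64e-07). THRB, the beta receptor for thyroid hormone, scored 12 and 11, against 186 and 224 (log2 -4.04). ITGB3, an integrin beta chain that pairs with the alpha V chain, scored 253 and 252, against 3296 and 3465 (log2 -3.74). The groups were far apart in all of them, and the THRB values with shMETTL3-2 were near the limit of 10 below which genes were set apart. LIFR, the receptor for leukaemia inhibitory factor, scored 278 and 292 with shMETTL3-2 and 1566 and 1698 with shMETTL3-1, against 3513 and 3137 with shLuc (log2 -3.54). PLCB4, a phospholipase C (log2 -3.63), TPPP3, which promotes tubulin polymerisation (-3.57), and the microtubule stabiliser MAP6 (-3.45) fell as well. The transcription factor NFIB fell by 3.31, and the other falls were in the cytoskeletal linker PPL (log2 -3.43), the lipid transfer protein PITPNM3 (-3.32), the actin-associated SYNPO2 (-3.23) and the long noncoding RNA LINC00707 (-3.49).

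**Figure D2:**
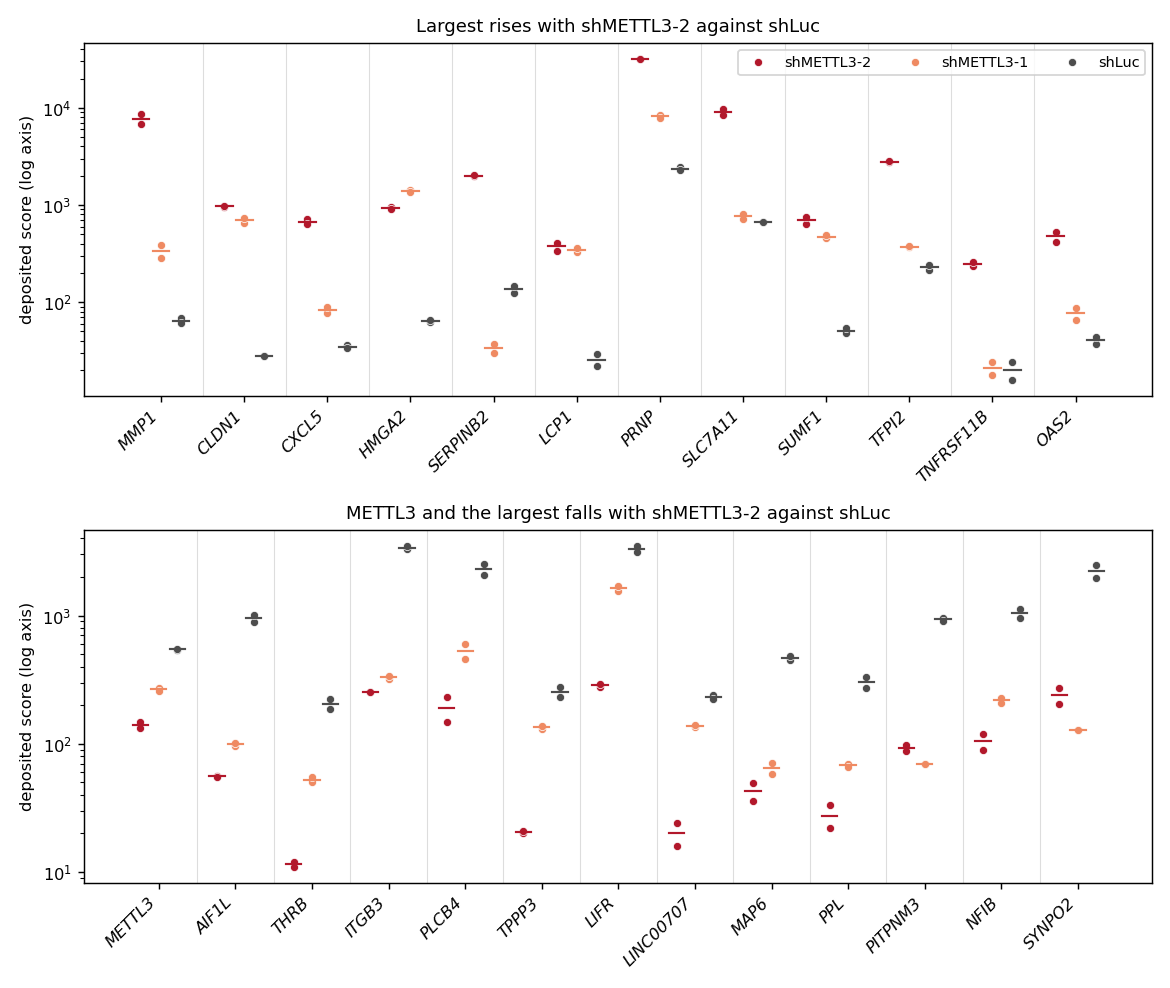
Deposited score (y axis, log scale) in each library for the 12 genes with the largest called rises (top) and for METTL3 with the 12 largest called falls (bottom); points are the 2 libraries of a group and bars their mean, with shMETTL3-2, shMETTL3-1 and shLuc from left to right. MMP1 reaches 8681 and 6822 with shMETTL3-2, and SERPINB2 is the one gene of the upper panel whose shMETTL3-1 values (37 and 30) lie below those of shLuc.

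Of the 169 genes with a value under 10, 30 were called higher and 24 lower. TNFSF13B, a cytokine that supports B cells, was listed at 324 and 316 with shMETTL3-2 and at 0 in both shLuc libraries. HGF, the hepatocyte growth factor that stellate cells secrete, was listed at 322 and 286, and again at 0 in both shLuc libraries. RSPO3, which amplifies Wnt signals, and CGA, the shared subunit of glycoprotein hormones, were listed at 323 and 306 and at 272 and 255, with 0 in both shLuc libraries. For HGF, TNFSF13B and CGA the shMETTL3-1 libraries were also well above 0 (206 and 268, 218 and 304 and 294 and 319). In RSPO3 the shMETTL3-1 libraries were split (0 and 169), and its call was lost on leaving out any shMETTL3-2 or shLuc library. DHRS4-AS1, an antisense transcript, was listed at 315 and 370 and at 0 with shLuc; whether strand was used in counting is not given, so its reads may belong to DHRS4. In the other direction SPATA17 was at 0 in both shMETTL3-2 libraries, against 259 and 251 with shLuc, while shMETTL3-1 had 246 and 210. KLHL30 was at 2 in both shMETTL3-2 libraries, against 252 and 225 with shLuc. AP000240.9 was at 0 in both shMETTL3-2 libraries, against 214 and 230 with shLuc; shMETTL3-1 had 178 and 0, and the call was lost on leaving out any shMETTL3-2 or shLuc library. LL22NC03-N64E9.1, also at 0 with shMETTL3-2, against 278 and 306 with shLuc, was not called in the fit of all 6 libraries (adjusted p = 0.0604), in which the shMETTL3-1 libraries stood at 0 and 300. It was called lower with only the 4 shMETTL3-2 and shLuc libraries in the fit (adjusted p = 0.000162), without either shMETTL3-1 library (6.62e-05 and 0.000536) and with no filter on low values (0.0408). No fold is given against a group at 0, since an exact 0 in such a table can be a failed estimate.

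Among the 15 genes at the maximum of 72566, the size of a change is limited by the ceiling and moves in steps. FN1 (fibronectin), MYH9, EEF1A1 and PPME1 were at the maximum in all 4 libraries. CLDN11, another claudin, was at the maximum in both shMETTL3-2 libraries, against 5031 and 5510 with shLuc, and at 7510 in both shMETTL3-1 libraries. TNC, the matrix glycoprotein tenascin C, was lower, at 7093 and 9719 with shMETTL3-2, against the maximum in both shLuc libraries. The cytoplasmic actins ACTB and ACTG1 were at the maximum with shMETTL3-2, against 44454 and 19484 in the shLuc libraries. FSTL1 was at the maximum with shMETTL3-2, against 44536 in both shLuc libraries. COL1A1, the main chain of type I collagen, stood at 44454 in both shMETTL3-2 libraries, against the maximum with shLuc. ANXA2 (27620) and FLNA (44490) were likewise below the maximum with shMETTL3-2 and at it with shLuc. ACTR3, of the actin-nucleating complex, had 31972 and 27569, against 72566 and 44504, and its call was lost without either shMETTL3-2 replicate. COL5A2 was at the maximum in both shMETTL3-2 libraries, against 44504 and 72566 with shLuc, and was not called (adjusted p = 0.219); without shLuc replicate 2 it was called higher (log2 0.71, adjusted p = 0.00172).

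**Figure D3:**
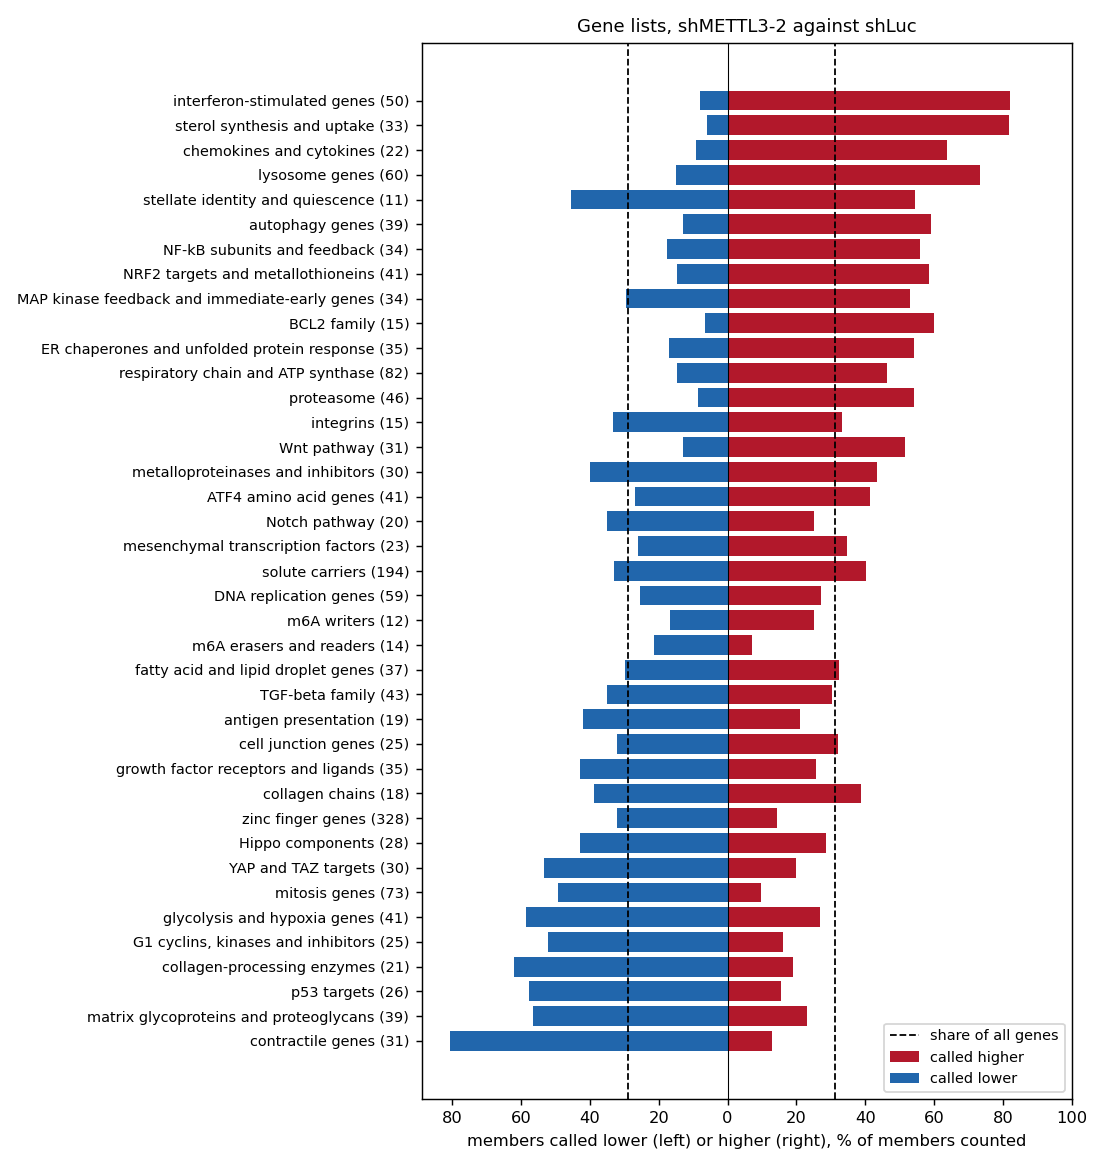
Share of the counted members of 39 gene lists called lower (left) or higher (right) in shMETTL3-2 against shLuc, in % of members counted (number in brackets), ordered by median log2 change; dashed lines mark the shares of all 12162 genes, 29.0% lower and 31.2% higher. Interferon-stimulated genes (82.0% higher) and sterol genes (81.8% higher) reach farthest to the right, and contractile genes (80.6% lower) farthest to the left.

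Interferon-stimulated genes, which encode antiviral effectors and the factors that drive them, were mostly higher with shMETTL3-2. Of 50 members counted, 41 were called higher (82.0%, against 31.2% of all genes) and 4 lower, with a median change of 1.04 against 0.01 for all genes. A called rise of 1 or more was seen in 27 members, against 5.70% of all genes. IFIT1, which binds foreign RNA caps, scored 840 and 670 with shMETTL3-2 and 76 and 82 with shMETTL3-1, against 63 and 82 with shLuc (log2 3.37, SE 0.17, adjusted p = 6.44e-06). HERC6, a ubiquitin ligase family member, scored 599 and 476, against 48 and 54 (log2 3.37). IFIT2 scored 286 and 213 with shMETTL3-2, against 34 and 36 with shLuc (log2 2.78). The groups did not overlap in any of these genes. IRF9, a DNA-binding subunit of the transcription complex of type I interferon, scored 1698 and 1561, against 504 and 465 (log2 1.75). The cytosolic RNA sensors DHX58 (log2 2.19), DDX58 (1.07) and IFIH1 (0.56) rose as well. Of the 4 members that fell, IFIT5 changed most (92 and 66, against 392 and 352; log2 -2.24), followed by the guanylate-binding proteins GBP2 (-1.16) and GBP1 (-1.11). OAS1, set apart for low values, was listed at 142 and 124 with shMETTL3-2, against 10 and 6 with shLuc.

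The other hairpin gave other values for these genes. Against the same shLuc libraries, shMETTL3-1 had 14 members called higher and 11 lower, with a median of -0.03, where 30.1% of all genes were called higher and 29.0% lower. Compared directly, 41 of the 50 members were called higher with shMETTL3-2 than with shMETTL3-1 and 3 lower, where 32.7% of all genes were called higher and 31.0% lower (63.7% in all). For IFIT1 this difference was 3.23 (adjusted p = 6.07e-06) and for IRF9 it was 1.79 (adjusted p = 2.47e-06).

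IFIT1 and IFIT2 are shown as the 2 called members with the largest rises whose windows hold an interferon response element. Only members with an annotated start within 100 bases of the listed start were considered. Each of the 2 windows holds a pair of these elements close to the start. Windows cover 250 bases before to 50 after the listed start on the plus strand of hg19, chr10:91152053-91152352 for IFIT1 and chr10:91061462-91061761 for IFIT2. Capitals mark the element searched, GAAA repeated after any 2 bases, on both strands; the matches shown lie on the opposite strand and do not overlap each other.
IFIT1: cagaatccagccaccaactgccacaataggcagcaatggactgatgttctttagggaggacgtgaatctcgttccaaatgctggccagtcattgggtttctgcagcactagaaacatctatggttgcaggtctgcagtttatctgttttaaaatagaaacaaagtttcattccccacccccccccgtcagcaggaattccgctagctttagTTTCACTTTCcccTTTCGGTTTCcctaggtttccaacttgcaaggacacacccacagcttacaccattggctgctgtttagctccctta
IFIT2: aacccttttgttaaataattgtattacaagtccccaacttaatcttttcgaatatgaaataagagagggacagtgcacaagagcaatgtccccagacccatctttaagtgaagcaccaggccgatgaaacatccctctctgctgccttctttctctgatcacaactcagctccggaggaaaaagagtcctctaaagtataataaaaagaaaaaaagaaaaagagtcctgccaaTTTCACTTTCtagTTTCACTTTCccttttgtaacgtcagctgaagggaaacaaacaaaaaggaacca
The element was found in 19 of the 50 windows (38.0%), against 3.13% of all 12346.

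Chemokines and cytokines were also higher on balance. Of 22 members counted, 14 were called higher (63.6%, against 31.2%) and 2 lower, and the median was 0.69. CXCL1 scored 394 and 364 with shMETTL3-2, against 56 and 58 with shLuc (log2 2.71). IL8, like CXCL1 a neutrophil attractant, scored 1866 and 1844, against 403 and 410 (log2 2.19, adjusted p = 8.64e-07). TNFSF4, the OX40 ligand, scored 4893 and 4782, against 507 and 576 (log2 3.16). The shMETTL3-2 values were several-fold above those of shLuc in each. The acute-phase cytokine IL6 rose less (220 and 195, against 86 and 66; log2 1.45), and CCL2, which recruits monocytes, rose less still (311 and 254, against 225 and 204; log2 0.39, adjusted p = 0.0424). The members that fell were CXCL16 (log2 -1.60) and the profibrotic cytokine IL11 (-0.60). With shMETTL3-1, 8 members were higher and 6 lower against the shared shLuc libraries (30.1% and 29.0% of all genes). Between the hairpins, 15 of 22 were called higher with shMETTL3-2 (32.7% of all genes) and 4 lower (31.0%).

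NF-kB subunits, adaptors and feedback genes had 19 of 34 members called higher (55.9%) and 6 lower, with a median of 0.31. ICAM1, a leukocyte adhesion molecule, scored 3354 and 3408 with shMETTL3-2 and 404 and 434 with shMETTL3-1, against 612 and 784 with shLuc (log2 2.29, SE 0.11, adjusted p = 8.12e-06). The receptor adaptor MYD88 rose by 1.90, the survival factor BIRC3 by 1.42 and SOD2, the mitochondrial superoxide dismutase, by 1.36. The inhibitors NFKBIA (0.34) and TNFAIP3 (0.53) rose by less, and TNIP1, another inhibitor, fell (820 and 852, against 1744 and 1862; log2 -1.11). Of the kinases upstream, CHUK (-0.66) and IKBKB (-0.46) fell.

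Antigen presentation genes had more members lower than higher. Of 19 members, 4 were called higher and 8 lower (42.1%, against 29.0%), and the median was -0.06. B2M, the light chain of MHC class I, scored 15424 and 13362 with shMETTL3-2, against 31962 and 27547 with shLuc (log2 -1.05). NLRC5, the activator of class I genes, scored 364 and 365, against 846 and 850 (log2 -1.22). CD274, the checkpoint ligand PD-L1, scored 356 and 530, against 2198 and 2212 (log2 -2.34). All shMETTL3-2 values were below all shLuc values in these genes. HLA-B (-0.68) fell too, and its reads may be shared with related loci. The peptidase ERAP2 rose (1346 and 1347, against 540 and 558; log2 1.29).

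Genes of cholesterol synthesis and uptake, many of which the transcription factor SREBF2 drives when sterols are low, were mostly higher. The list was not limited to targets of SREBF2 and also named MYLIP, ABCA1, ABCG1, NR1H2 and NR1H3. Of 33 members, 27 were called higher (81.8%, against 31.2%) and 2 lower, with a median of 0.76, and 12 rose by 1 or more. DHCR7, which makes cholesterol in its last step, scored 4580 and 4668 with shMETTL3-2 and 1342 and 1376 with shMETTL3-1, against 1464 and 1570 with shLuc (log2 1.61, SE 0.05, adjusted p = 1.52e-06). HMGCS1, a synthase early in the pathway, scored 5134 and 5037, against 1838 in both shLuc libraries (log2 1.47). There was no overlap between the groups in these enzymes. FDPS (log2 1.59), FDFT1 (1.32), SQLE (1.19) and the feedback protein INSIG1 (1.40) rose as well, as did SREBF2 itself (0.43). The largest change was in MYLIP, a ubiquitin ligase of lipoprotein uptake (304 and 432, against 55 and 71; log2 2.52). STARD4, a sterol transfer protein, fell (3161 and 3096, against 5640 and 5966; log2 -0.89); LSS was called lower at -0.23, a call lost without shLuc replicate 2 or shMETTL3-2 replicate 1. With shMETTL3-1, 8 members were higher and 13 lower against the shared shLuc libraries (30.1% and 29.0% of all genes). Between the hairpins, 26 of 33 were called higher with shMETTL3-2 (32.7% of all genes) and 2 lower (31.0%).

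HMGCS1 is shown as the called member with the largest rise whose window holds a sterol response element. Only members with an annotated start within 100 bases of the listed start were considered. The window is hg19 chr5:43313546-43313845 on the minus strand, and capitals mark TCACNCCAC, searched on both strands.
HMGCS1: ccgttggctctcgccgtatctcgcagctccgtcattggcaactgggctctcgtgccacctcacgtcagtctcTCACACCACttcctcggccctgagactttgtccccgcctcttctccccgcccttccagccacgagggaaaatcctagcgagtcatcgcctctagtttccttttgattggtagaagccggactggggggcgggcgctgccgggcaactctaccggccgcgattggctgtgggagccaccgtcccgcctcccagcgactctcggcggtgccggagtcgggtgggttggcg
This element was found in 5 of 33 windows of sterol genes (15.2%), against 1.23% of all 12346. It was not in the 300 bases of the other 28 members, which says only that those letters were absent from these windows.

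Fatty acid and lipid droplet genes were divided, with 12 of 37 higher, 11 lower and a median of 0.00. ELOVL6, which elongates palmitate, scored 328 and 312 with shMETTL3-2, against 110 and 90 with shLuc (log2 1.67). The desaturase SCD scored 4938 and 5554, against 2397 and 2685 (log2 1.05). Among those that fell were the fatty acid carrier FABP5 (log2 -1.28), LPIN2 (-1.25) and ACSL4, which activates polyunsaturated fatty acids (-1.06).

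**Figure D4:**
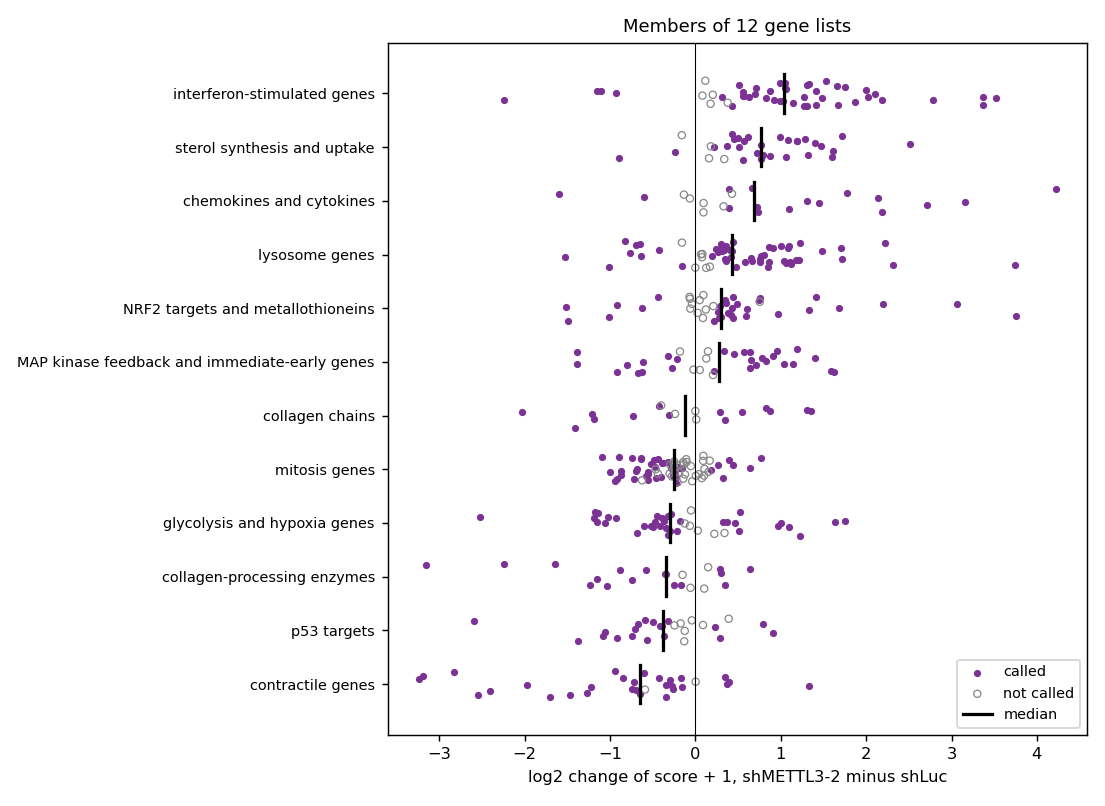
Log2 change of score + 1, shMETTL3-2 minus shLuc (x axis), for each counted member of 12 gene lists (rows); filled points are called genes, open points are not called, and black bars are list medians. The medians run from 1.04 for interferon-stimulated genes to -0.65 for contractile genes, and every list shown has members on both sides of 0.

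The joint list of NRF2 targets and metallothioneins, which handle oxidants and heavy metals, had 24 of 41 members called higher (58.5%) and 6 lower. Its median was 0.30. HMOX1, the haem-degrading oxygenase, scored 3080 and 2830 with shMETTL3-2 and 578 and 608 with shMETTL3-1, against 381 and 328 with shLuc (log2 3.06, SE 0.09, adjusted p = 1.02e-06). NQO1, a quinone reductase, scored 2838 and 2685 with shMETTL3-2 and 395 and 408 with shMETTL3-1, against 608 and 598 with shLuc (log2 2.19). The difference between the hairpins was 2.78 for NQO1 and 2.31 for HMOX1 (adjusted p = 4.52e-07 and 1.80e-06). The ferritin chains FTL and FTH1 rose by 1.68 and 1.41; both have processed pseudogenes, so their reads may be shared. GCLM and GCLC, the subunits of glutamate-cysteine ligase, rose by less (log2 0.49 and 0.27). NFE2L2, which encodes NRF2, had 872 and 498, against 484 and 315, and was not called (adjusted p = 0.124). The members that fell were catalase (CAT, log2 -1.49), SOD1 (-0.44) and 4 metallothioneins, a family of close paralogs, from MT1F at -1.51 to MT1X at -0.63; MT2A rose (0.44).

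The ATF4 program of amino acid supply had 17 of 41 members higher and 11 lower, with a median of 0.11. Besides SLC7A11, ASNS, the asparagine synthetase, rose (1188 and 1414 with shMETTL3-2, against 475 and 574 with shLuc; log2 1.31), as did CEBPB (1.17). ATF4 itself (-0.43), ATF3 (-1.38) and the mitochondrial folate enzyme ALDH1L2 (-1.44) fell. Of 35 ER chaperones and genes of the unfolded protein response, 19 were called higher (54.3%) and 6 lower (median 0.21). SEL1L, of the ER degradation complex, rose by 1.11, and the chaperone HSPA5 by 0.95 (44536 and 31996, against 19516 in both shLuc libraries). CREB3L1 (-0.54), a factor that drives collagen genes, and its relative CREB3L2 (-0.63) fell.

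Lysosomal genes were higher in most cases, with 44 of 60 members called (73.3%, against 31.2%), 9 called lower and a median of 0.43. A rise of 1 or more was called in 16. Beside SUMF1, the acid lipase LIPA scored 644 and 741 with shMETTL3-2 and 1460 and 1382 with shMETTL3-1, against 144 and 152 with shLuc (log2 2.22). MANBA, a mannosidase, scored 392 and 484, against 96 and 78 (log2 2.32). The calcium channel MCOLN1 scored 876 and 910, against 306 and 332 (log2 1.48). Each gene had its shLuc values below all shMETTL3-2 values. Acid ceramidase ASAH1 rose by 1.72, and the proton pump subunits ATP6V1C1, ATP6V1G1 and ATP6V1A by 1.70, 1.22 and 1.17. The transcription factors that drive this gene set, TFEB (72 and 76, against 158 and 142; log2 -1.01) and MITF (194 and 280, against 606 and 743; log2 -1.52), fell, while TFE3 rose (0.36). CD68, a lysosomal membrane protein and macrophage marker, was higher as well (1053 and 1083 with shMETTL3-2, against 392 and 360 with shLuc), and its part in this result was not tested. Against the shared shLuc libraries shMETTL3-1 had 34 members higher and 16 lower (30.1% and 29.0% of all genes).

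MCOLN1 is shown as a called member whose window holds the lysosomal CLEAR element, here TCACGTGA, a palindrome that contains the E-box CACGTG. It was taken by size of rise from members with an annotated start within 100 bases of the listed start. Some members were not considered. Its window holds 2 copies. The window is hg19 chr19:7587262-7587561 on the plus strand.
MCOLN1: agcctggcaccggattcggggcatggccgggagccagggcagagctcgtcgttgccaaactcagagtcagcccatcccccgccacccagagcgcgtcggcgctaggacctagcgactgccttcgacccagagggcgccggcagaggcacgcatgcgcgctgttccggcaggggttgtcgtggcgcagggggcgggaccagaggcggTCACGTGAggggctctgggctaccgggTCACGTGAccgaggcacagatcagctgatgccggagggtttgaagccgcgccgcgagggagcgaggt
The element was found in 4 of 60 lysosomal windows (6.67%), against 1.49% of all 12346. This share was not particular to lysosomal genes. It was 14.3% for m6A erasers and readers (2 of 14), 6.67% for the BCL2 family (1 of 15) and 5.88% for the NF-kB list (2 of 34).

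Autophagy genes had 23 of 39 members higher (59%, against 31.2%) and 5 lower (12.8%, against 29.0%), with a median of 0.31. The cargo receptor SQSTM1 scored 9940 and 9702 with shMETTL3-2, against 3536 and 3258 with shLuc (log2 1.53), and the initiating kinase ULK1 scored 2628 and 2614, against 1321 and 1287 (log2 1.01). Proteasome genes moved by small amounts: 25 of 46 were called higher and 4 lower (median 0.20), none with a rise of 1 or more. PSMB10, an immunoproteasome subunit, rose most (0.90), and the assembly chaperones PSMG2 (-1.08) and PSMG1 (-0.87) fell most.

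**Figure D5:**
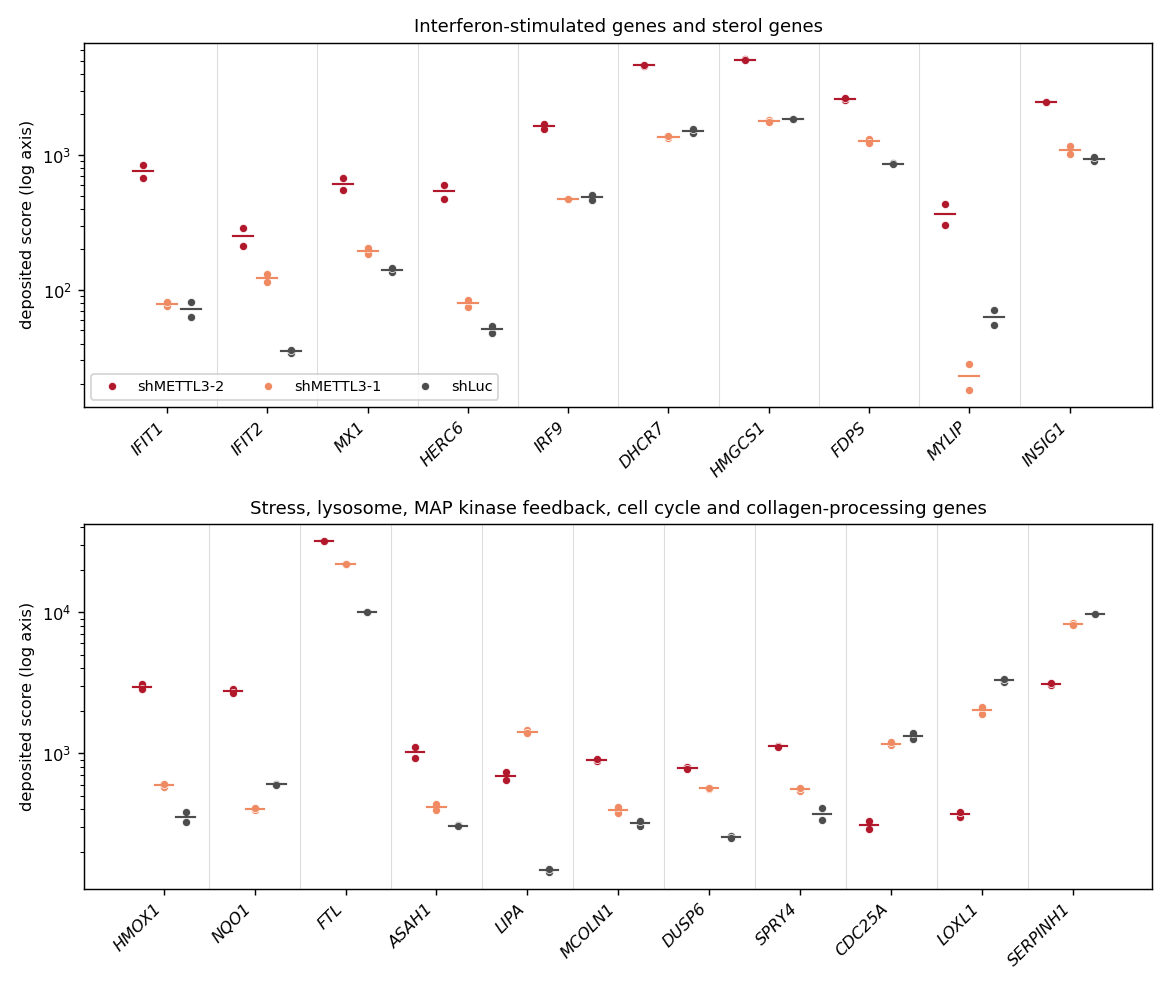
Deposited score (y axis, log scale) in each library for members of the interferon and sterol lists (top) and of the stress, lysosome, MAP kinase, cell cycle and collagen-processing lists (bottom); points are the 2 libraries of a group and bars their mean, with shMETTL3-2, shMETTL3-1 and shLuc from left to right. NQO1 and MYLIP have their shMETTL3-1 values below those of shLuc, and CDC25A and LOXL1 have their lowest values with shMETTL3-2.

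Contractile genes, the actins, myosins and actin-binding proteins that serve as markers of myofibroblasts, were mostly lower. Of 31 members, 25 were called lower (80.6%, against 29.0%) and 4 higher, with a median of -0.65, and 10 fell by 1 or more. ACTA2, smooth muscle alpha-actin and the usual marker of stellate cell activation, scored 1394 and 1694 with shMETTL3-2 and 917 and 1040 with shMETTL3-1, against 8266 and 9713 with shLuc (log2 -2.54, SE 0.12, adjusted p = 1.01e-05). ACTG2, the enteric smooth muscle actin, scored 885 and 938, against 8286 and 8429 (log2 -3.20). LMOD1, which nucleates actin in smooth muscle, scored 212 and 195, against 1504 and 1386 (log2 -2.82). No shMETTL3-2 value reached a shLuc value in these genes; the muscle actins are near-identical in coding sequence and reads may be shared among them. Calponin CNN1 (log2 -1.47), TAGLN (-0.71) and the myosin light chain MYL9 (-0.65) also fell. The coactivator MYOCD (160 and 160, against 636 and 630; log2 -1.98) and its relative MKL2 (-1.70) were lower, while the partner factor SRF did not change past the threshold (2870 and 2796, against 2796 and 2858; adjusted p = 0.964). CNN2, a calponin of nonmuscle cells, was the largest rise (9948 and 9719, against 3848 and 3986; log2 1.33), followed by TPM3 (0.39) and TPM1 (0.37). With shMETTL3-1, 22 members were lower and 2 higher against the shared shLuc libraries (29.0% and 30.1% of all genes). Between the hairpins, 17 of 31 were called higher with shMETTL3-2 (32.7% of all genes) and 7 lower (31.0%). ACTA2 was higher with shMETTL3-2 than with shMETTL3-1 by 0.65 (adjusted p = 0.00346).

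Collagen chains went both ways, with 7 of 18 called higher, 7 lower and a median of -0.12. COL3A1, a fibrillar chain, scored 12146 and 15434 with shMETTL3-2, against 4631 and 6150 with shLuc (log2 1.36, SE 0.17, adjusted p = 0.00103), and with shMETTL3-1 it had 5131 and 5280. COL1A2, the partner of COL1A1 in type I collagen, scored 4264 and 5203, against 5342 and 7244, and was not called (adjusted p = 0.0885); it was called lower under 3 alternatives, among them without shLuc replicate 1 (log2 -0.62, adjusted p = 0.00976) and a mean of 200 or more (adjusted p = 0.0471). COL27A1 rose by 1.30. The basement membrane chain COL4A1 scored 5208 and 5520, against 12154 and 12616 (log2 -1.21), and COL8A1 (-1.41) and COL15A1 (-2.03) fell as well.

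Enzymes that modify, fold and crosslink collagen were lower in 13 of 21 cases (61.9%, against 29.0%) and higher in 4, with a median of -0.34. LOXL1, a lysyl oxidase that also crosslinks elastin, scored 354 and 382 with shMETTL3-2 and 1910 and 2116 with shMETTL3-1, against 3173 and 3378 with shLuc (log2 -3.15, SE 0.07, adjusted p = 6.16e-07). The collagen chaperone SERPINH1 scored 3042 and 3154, against 9702 in both shLuc libraries (log2 -1.65). ADAMTS14, which trims procollagen, was low in all libraries (18 and 22, against 97 and 99; log2 -2.24). The hydroxylases P4HA1 (-1.15) and PLOD2 (-0.88) also fell. LOX scored 11356 in both shMETTL3-2 libraries, against 12606 in both shLuc libraries (adjusted p = 0.0625). LOXL2 was called higher (0.35).

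Matrix glycoproteins and proteoglycans had 9 of 39 members called higher and 22 lower (56.4%, against 29.0%), with a median of -0.38. SPARC, a collagen-binding matricellular protein, scored 44404 in both shMETTL3-2 libraries, against 11798 and 12564 in the shLuc libraries (log2 1.87). EFEMP1, a fibulin, scored 1507 and 1613, against 269 and 273 (log2 2.52). FBN1, fibrillin of the microfibrils, scored 7709 and 7926, against 22092 in both shLuc libraries (log2 -1.50). The libraries of these genes kept to separate ranges, upward for the first 2 and downward for FBN1. MAMDC2, a secreted proteoglycan (log2 -2.79), the syndecan SDC4 (-2.05) and the laminin chain LAMA5 (-1.81) fell, while the laminin chain LAMA1 rose by 1.81.

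Metalloproteinases and their inhibitors had 13 of 30 members higher and 12 lower. Beyond MMP1, the sheddase ADAM17 (1050 and 998 with shMETTL3-2, against 315 and 274 with shLuc) and RECK, a membrane inhibitor of metalloproteinases (log2 1.70), rose. PLAU, the plasminogen activator urokinase, fell (405 and 366 with shMETTL3-2, against 2492 and 2360 with shLuc; log2 -2.65), while its receptor PLAUR rose (1.25). TIMP3, an inhibitor bound to the matrix, fell by 1.49. TIMP1 scored 2480 and 2324, against 2276 and 2226, and was not called (adjusted p = 0.281). Integrins were split, with 5 of 15 higher and 5 lower: the collagen receptor chain ITGA2 scored 308 and 344, against 42 and 39 (log2 2.98), and the common chain ITGB1 scored 16692 and 11834, against 31952 in both shLuc libraries (log2 -1.18).

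The TGF-beta family, the main profibrotic signal for these cells, had 13 of 43 members higher and 15 lower, shares close to those of all genes. Among ligands, TGFB1 scored 1433 and 1428 with shMETTL3-2, against 916 and 863 with shLuc (log2 0.69), and TGFB3 fell by 1.06. Of the receptors, TGFBR2 rose (0.63) and TGFBR1 (-0.99) fell. The repressor SKI rose (3690 and 3508, against 1716 and 1768; log2 1.05), and SMAD9, of the BMP branch, scored 38 and 32, against 108 and 132 (log2 -1.75). PDGFRB, the receptor through which stellate cells are driven to divide, scored 1236 and 1419, against 1808 and 1718 (log2 -0.41). Mesenchymal transcription factors had 8 of 23 higher and 6 lower: SNAI2 rose (290 and 286, against 112 and 112; log2 1.35) and ZEB1 fell (-0.65).

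Hippo components had 8 of 28 members higher and 12 lower. YAP1, the coactivator that the pathway restrains, scored 5037 and 5576 with shMETTL3-2, against 3363 and 3644 with shLuc (log2 0.60). The kinase LATS2 scored 1134 and 1138 with shMETTL3-2 and 2668 and 2815 with shMETTL3-1, against 1218 and 1321 with shLuc, and its small change missed the threshold (log2 -0.16, adjusted p = 0.0554) and passed under 4 alternatives, among them without shLuc replicate 1 (adjusted p = 0.0372), scaling by the median of ratios (0.0414) and a mean of 200 or more (0.0488). VGLL4, which competes with YAP1 for TEAD factors, rose (1.57), and VGLL3 (-2.41) and AJUBA (-1.58) fell. Of 30 YAP and TAZ targets, 6 were higher and 16 lower (53.3%, against 29.0%), with a median of -0.23. CTGF scored 7689 in both shMETTL3-2 libraries, against 10747 and 9709 with shLuc (log2 -0.41), and the vasoconstrictor EDN1 (-1.44) and the ecto-nucleotidase NT5E (-1.56) fell further. ANKRD1 lay at 0.05 (adjusted p = 0.72).

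Genes of MAP kinase feedback, which rise when ERK is active, had 18 of 34 members higher and 10 lower, with a median of 0.28. The ERK phosphatase DUSP6 scored 798 and 771 with shMETTL3-2, against 258 and 251 with shLuc (log2 1.62). SPRY4 and SPRY2, inhibitors of receptor signals, rose by 1.59 and 1.40. The immediate-early factor EGR1 (-0.63) and the phosphatases DUSP1 (-0.67) and DUSP7 (-0.92) fell. Of 35 growth factor receptors and ligands, 9 were higher and 15 lower. NRG1, a ligand of ERBB receptors, rose (623 and 842, against 160 and 214; log2 1.96), and the ligand HBEGF fell (846 and 848, against 3035 and 2994; log2 -1.83). MET, the receptor for HGF, scored 944 and 904 with shMETTL3-2 and 5856 in both shMETTL3-1 libraries, against 3784 and 3636 with shLuc, and was called lower (adjusted p = 6.36e-07). FGFR4 was called lower at a low score (12 and 14, against 90 and 122), and the call was lost without either shMETTL3-2 replicate or without shLuc replicate 2.

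Among cell cycle genes, more were called lower than higher in the G1 and mitosis lists. Of 25 G1 cyclins, kinases and inhibitors, 13 were called lower (52.0%) and 4 higher, with a median of -0.31. CDC25A, the phosphatase that activates CDK2, scored 292 and 330 with shMETTL3-2 and 1144 and 1191 with shMETTL3-1, against 1260 and 1387 with shLuc (log2 -2.09, SE 0.08, adjusted p = 2.60e-06). CDK2 scored 786 and 820, against 2070 and 2079 (log2 -1.37). SKP2, which marks cell cycle inhibitors for degradation, scored 3047 and 3024, against 5693 and 6344 (log2 -0.99). In each of the 3 the shMETTL3-2 libraries were the lower ones without overlap. The inhibitor CDKN1A scored 2898 and 2762, against 3154 and 3042, and was not called (adjusted p = 0.0909), and E2F3 rose (1.27). Of 73 mitosis genes, 36 were lower (49.3%) and 7 higher, with a median of -0.25. The condensin subunit NCAPH (log2 -0.94) and the kinase AURKB (-0.89) fell; TOP2A was called at -1.09, a call lost without shMETTL3-2 replicate 2. MKI67, the proliferation marker, scored 5450 and 4796, against 5647 in both shLuc libraries (adjusted p = 0.123), and was called lower without shMETTL3-2 replicate 1 (log2 -0.24, adjusted p = 0.0235). CDK1 (3142 and 3052, against 3052 and 2970; adjusted p = 0.563) and CCNB1 (4552 and 4972, against 4850 and 4638; adjusted p = 0.957) were not called. With shMETTL3-1, 59 of these 73 genes were lower against the shared shLuc libraries and 4 higher (29.0% and 30.1% of all genes). Between the hairpins, 40 were called higher with shMETTL3-2 (32.7% of all genes) and 9 lower (31.0%). DNA replication genes had 16 of 59 higher and 15 lower, among them E2F7 (1.51) and the single-strand binding protein RPA1 (0.93), which rose, and E2F8 (-1.50) and UHRF1 (-0.85), which fell.

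Targets of p53 were on balance lower with shMETTL3-2, with 15 of 26 called lower (57.7%, against 29.0%) and 4 higher, and a median of -0.38. RRM2B, a ribonucleotide reductase subunit, scored 33 and 34 with shMETTL3-2 and 441 and 458 with shMETTL3-1, against 199 and 214 with shLuc (log2 -2.59). MDM2, a ubiquitin ligase, scored 644 and 572 with shMETTL3-2 and 3198 and 3540 with shMETTL3-1, against 816 and 775 with shLuc (log2 -0.39). In these genes the shMETTL3-2 values were lowest and the shMETTL3-1 values highest. Against the shared shLuc libraries, shMETTL3-1 had 23 of 26 members higher and 2 lower (30.1% and 29.0% of all genes), with a median of 0.94. Compared directly, 22 of 26 were called lower with shMETTL3-2 than with shMETTL3-1 and 1 higher, where 31.0% and 32.7% of all genes were. The death receptor TNFRSF10B scored 836 and 888 with shMETTL3-2 and 4310 and 4400 with shMETTL3-1, against 1797 and 1862 with shLuc. Of 15 BCL2 family genes, 9 were higher (60%, against 31.2%) and 1 lower (6.67%, against 29.0%). The protective MCL1 rose (6670 and 6158, against 1904 and 1694, log2 1.83), as did the death-promoting BMF (1.74) and HRK (1.41). The protective BCL2L2 fell (-1.47).

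Glycolysis and hypoxia genes had 11 of 41 members higher and 24 lower (58.5%, against 29.0%), with a median of -0.30. PGK1, phosphoglycerate kinase, scored 2460 and 2904 with shMETTL3-2 and 44490 in both shMETTL3-1 libraries, against 15424 in both shLuc libraries (log2 -2.53). LDHA, which makes lactate, scored 5580 and 5450, against 13386 and 11864 (log2 -1.19). The neuronal-type glucose transporter SLC2A3 rose (5776 and 5976, against 1785 and 1690; log2 1.76), and the hypoxia factors EPAS1 (1.23) and HIF1A (0.96) rose as well. Respiratory chain and ATP synthase genes had 38 of 82 members higher (46.3%) and 12 lower, with a median of 0.21. The complex I subunit NDUFB4 rose most (1.09) and ATP5J2, of the ATP synthase, fell most (-1.16).

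Of 11 stellate identity genes, 6 were higher and 5 lower. RELN, a glycoprotein that stellate cells secrete, scored 116 and 146 with shMETTL3-2, against 18 and 16 with shLuc (log2 2.87). NES, the intermediate filament protein nestin, scored 82 and 86, against 534 and 594 (log2 -2.73), and VIM, vimentin, scored 12124 and 12564, against 44404 and 31900 (log2 -1.61). The nerve growth factor receptor NGFR fell by 1.38, and the lipid droplet coat PLIN2 rose (0.69).

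Wnt pathway genes had 16 of 31 members higher (51.6%) and 4 lower, with a median of 0.18. The receptor ROR2 rose (826 and 924 with shMETTL3-2, against 296 and 346 with shLuc; log2 1.45) and its relative ROR1 fell (56 and 61, against 258 and 292; log2 -2.21). FZD8 (1.19) and the secreted inhibitor DKK1 (1.06) rose, and the coreceptor LRP6 (-0.53) fell. Notch genes had 5 of 20 higher (3 without shMETTL3-2 replicate 1) and 7 lower: the receptor NOTCH3 (-1.24), the nuclear effector RBPJ (-1.42) and the inhibitor NUMB (-1.48) fell. Cell junction genes had 8 of 25 higher and 8 lower. CAV2 and CAV1, which form caveolae together, moved in opposite directions: CAV2 scored 3668 and 3644, against 374 and 310 (log2 3.42), and CAV1 scored 2874 and 2614, against 8687 and 9392 (log2 -1.72).

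The 2 largest families were the solute carriers and the zinc finger genes. Solute carriers had 78 of 194 members higher (40.2%) and 64 lower (33.0%), led after SLC7A11 by SLC46A3, a lysosomal transporter (183 and 202 with shMETTL3-2, against 22 and 16 with shLuc; log2 3.29), and, downward, by the zinc transporter SLC30A6 (158 and 176, against 936 and 926; log2 -2.47). Zinc finger genes had 47 of 328 higher (14.3%, against 31.2%) and 105 lower (32.0%, against 29.0%), with a median of -0.12. ZNF714 scored 64 and 60, against 252 and 320 (log2 -2.18), and ZNF24 scored 452 and 400, against 1570 and 1368 (log2 -1.78); reads of such paralogs may be shared.

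Against shMETTL3-1, 7781 of the 12346 genes were called (63.0%), 3999 higher (32.4%) and 3782 lower (30.6%) with shMETTL3-2, and shMETTL3-1 had 7232 genes called against shLuc (58.6%, or 59.1% of the 12162). The 2 comparisons with shLuc share their control libraries, so their values are set side by side only. Among genes called in both contrasts of shMETTL3-2, and leaving out those with a shMETTL3-2 or shLuc value under 10 or at the maximum, SERPINB2 differed most between the hairpins, with 1988 and 2012 in shMETTL3-2 cells and 37 and 30 in shMETTL3-1 cells, against 125 and 148 in shLuc cells. LGALS9C, a galectin with near-identical copies, differed by 4.94 between the hairpins (adjusted p = 1.99e-05), but its call against shLuc was lost under 6 alternatives, among them leaving out any 1 of the 4 shMETTL3-2 and shLuc libraries. EDA2R, a TNF receptor family member and p53 target, scored 20 and 18 with shMETTL3-2 and 490 and 480 with shMETTL3-1, against 142 and 146 with shLuc. TES, a focal adhesion protein, scored 60 and 73 with shMETTL3-2 and 1219 and 1172 with shMETTL3-1, against 180 and 190 with shLuc. For these last 2 the shMETTL3-2 values were lowest and the shMETTL3-1 values highest, without overlap.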

How the data were processed

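RNA sequencing of LX2 cells gave 1 deposited table of 12654 genes and 6 libraries. The deposited values are whole numbers that all libraries share almost rank for rank, with equal medians and maxima; they were treated as a score and not as read counts, and the authors' step that made them is not given in the sources used here. Per the labels' protocols, reads were mapped to hg19, and DESeq2 is named in the submitters' processing notes without a role.

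Genes with a mean score of 50 or more over the shMETTL3-2 and shLuc libraries were tested with limma 3.58.1 in R 4.3.3. The model had 1 mean per hairpin for the log2 of score plus a pseudocount of 1, used all 6 libraries (3 residual degrees of freedom) and had trended, robust moderation. Adjusted p-values are two-sided Benjamini-Hochberg values over all 12346 genes and come from this fit unless an alternative is named beside them. Those given for an alternative come from its own fit and are adjusted over the genes it tested. Fold changes are on this log2 scale, which understates low genes. The fit was tested on simulated data. Depth is unknown, so no counting interval is given.

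The members and gene lists were chosen with earlier results of these data known. Named genes are METTL3, the 12 largest called rises and falls, up to 3 called members per list and direction, genes with both values of a group under 10 (up to 5 a direction), genes at the maximum, 13 fibrosis and proliferation genes, and up to 5 a direction with the largest difference between hairpins. Other named genes were chosen after their values were seen. Members with a value under 10 or at the maximum are left out of list counts, and list members absent from the table were not analysed here. Some genes and sequences are not reported here. Promoter windows were read from the GRCh37 (hg19) reference at the deposited transcript starts. Of 11860 transcripts found in a GRCh37 gene annotation, 51.9% had the same start there and 85.0% had one within 100 bases. Element shares used all windows, whether or not the starts matched. Other elements were also searched, and their shares are not given. Alternatives varied the pseudocount, filter, scaling, moderation, block and libraries.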

Additional observations from a re-analysis of the deposited data

Results flagged for a closer look

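Over all 12346 genes, 1297 had the hairpins called in opposite directions against shLuc with the direct test between them also called; 635 of these were higher with shMETTL3-2 and 662 lower. The 2 comparisons with shLuc share their control libraries, so this count is a description. For a gene with opposite calls, the direct difference is larger than either change and has the same standard error. Its direct call therefore follows from the other 2 and adds no support. Among the named genes 35 did so, 12 of them higher with shMETTL3-2 and lower with shMETTL3-1, and 23 the other way round. All values that follow are log2 differences, shMETTL3-2 minus shMETTL3-1.

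Among the 12 higher with shMETTL3-2, SERPINB2 differed most, by 5.87. For SLAMF8, an immune cell surface receptor with low scores (129 and 132 with shMETTL3-2 and 6 and 2 with shMETTL3-1, against 22 and 13 with shLuc), the difference was 4.84. MYLIP differed by 3.95, the glucose transporter SLC2A3 by 3.25, ICAM1 by 3.01 and NQO1 by 2.78. Smaller differences were those of DHCR7 (1.77), the insulin receptor substrate IRS2 (1.74), E2F3 (1.60), NDUFB4 (1.55), WTIP (0.72) and the centromere protein CENPN (0.68).

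Among the 23 lower with shMETTL3-2, the difference was -4.60 for EDA2R, -4.35 for PLAU, -4.15 for TES, -4.06 for PGK1 and -3.71 for RRM2B. PGK1 has a processed pseudogene, so its reads may be shared, and its shMETTL3-1 and shLuc values were equal within each group (44490 and 15424). Receptors and membrane proteins among them were MET (-2.66), TNFRSF10B (-2.34), CAV1 (-2.24), NT5E (-2.20), the sugar transporter SLC35B4 (-2.20), TNFRSF9 (-1.83), NOTCH3 (-1.73) and LRP6 (-1.11). Signalling proteins were SMAD9 (-2.54), NUMB (-2.03), TNIP1 (-1.83) and DUSP7 (-1.49). The remaining members were ATP5J2 (-1.52), COL4A1 (-1.42), ACSL4 (-1.30), DERL2 (-1.08), PCIF1 (-1.02) and ALKBH5 (-0.79). METTL3 itself differed between the hairpins by -0.92, and its part in these differences was not tested.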

How the results depend on the processing

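Over 15 alternatives METTL3 kept its call, with a log2 change between -2.03 and -1.65. The count of called genes ran from 6244 (mean of 200 or more) to 7765 (replicate number as a block), and leaving out 1 library gave 6352 to 6974. Genes called with a log2 change of at least 1 in size numbered 1566. With all 12346 genes tested they numbered 1444 at a pseudocount of 10 and 1060 at a pseudocount of 50. They numbered 1026 under a mean of 200 or more, where only 9460 genes were tested. Of 278 named genes 266 were called, and 252 of them stayed called in the same direction wherever they were tested. No named gene reversed. Deviations of same-numbered libraries correlated at 0.180 between shMETTL3-2 and shLuc, the contrast reported here. The correlation was 0.0143 between shMETTL3-2 and shMETTL3-1 and 0.0455 between shMETTL3-1 and shLuc. Whether the replicate numbers pair the samples was not tested. With the replicate block, 3993 genes were higher and 3772 lower, and LATS2 (adjusted p = 0.0336) and COL1A2 (0.00295) were called lower. Scaling by the median of ratios moved the median change to -0.01. With 2 libraries per group no exact permutation test could pass the threshold, ties at the top of the table hide small changes, and unknown depth limits what low scores can show.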
